A study of Ovis aries with 36 samples.

Results

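In the sheep infraspinatus, 76 genes had a higher level at the end of the experiment than before surgery in the animals that received nandrolone after tendon repair (arm N6W), in the operated muscle and in the muscle of the other side. They were picked from the measured values of 25197 genes. A member had to exceed a value of 1 in all 36 libraries and have a median of 10 to 10000, which 12395 genes did, identifiers up to number 37 being left out. On log2(value + 1), the mean change from before surgery to the end had to be at least 0.7 in N6W on both sides. The mean change over tendon release in the 9 animals had to lie between −0.5 and 0.5, and at the end the other side of the 6 treated animals had to lie within 0.5 of the untreated animals. Of the 12395 genes, 512 met the minimum on the other side, 810 on the operated side and 254 on both, against 207 that were lower by at least 0.7 on both sides. With the bound on release 107 remained, and with the bound on the other side 76, or 0.613%. The levels and changes that the rule used are given below as a description, without a test.

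The name under which these genes were grouped calls them not linked to release. The bound behind it holds for the mean of 9 animals, in which opposite changes of the arms offset each other. In N6W, 72 of the 76 genes were already above their starting level at the end of release, before any drug was given, against 49.4% of the 12395. In the untreated arm 56 of the 76 were below it, against 59.8%. Libraries of both changes entered the rule, so these counts follow in part from the choice of genes. The genes are therefore named here by the rule alone, as genes higher on both sides at the end in N6W.

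The animals were two-year-old female Swiss Alpine sheep, 3 per arm, and the arms were named CONTROL, N22W and N6W. All 9, CONTROL included, had the infraspinatus tendon released for 16 weeks and then reattached for 6 weeks. CONTROL received no drug, N22W received 150 mg of nandrolone decanoate weekly for the 22 weeks from release on, and N6W received the same dose weekly for the 6 weeks from repair on. Each animal gave 4 RNA-seq libraries: before release (PRE), at repair after release (TR), at the end from the operated side (END) and at the end from the unoperated opposite side (END-CC). The opposite side was sampled at the end alone, so no library shows it before treatment, and its change is taken against PRE of the operated side.

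The infraspinatus turns the arm outward and belongs to the rotator cuff. When its tendon is detached, the muscle retracts and loses load, its fibres waste, and fat and connective tissue accumulate. Nandrolone is an anabolic steroid that acts through the androgen receptor, a transcription factor that muscle fibres and other cells of muscle carry. A drug given by injection reaches the muscles of both shoulders, whereas release and reattachment act directly on one. The identifiers come without gene names, so the roles of the 76 genes are not given, and markers of fibre types, fat, connective tissue, vessels or blood could not be used to check the makeup of the biopsies. In bulk RNA of this kind, fewer cells of a type and less RNA per cell cannot be told apart.

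Each library held 11879727 to 43065486 reads, as recovered from the values, and the same gene took the most reads in each, 22.53 to 37.17%. Values are reads divided by 1 size factor per library. The 12 libraries taken at PRE or TR in CONTROL or N22W (set A) lay apart in level from the other 24 (set B), which include all 12 of N6W. On log2(value + 1), relative to the mean over set B, the median of all 12395 genes was 0.43 to 0.60 in set A. In 64 genes (0.516%) every library of set A was over 8-fold above every library of set B. The cause of the difference was not tested. The changes that the rule used each lie inside one set. Changes from PRE to END or END-CC in CONTROL and N22W cross the sets, and there the set and the time cannot be told apart. Nothing in the labels names these sets or other batches. P-values rest on the spread left after the animal term, pooled over all groups of 3 animals, N6W included.

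The low point of the 76 genes was the N6W muscle before surgery. For each gene the level in a library was taken relative to its mean over the 24 libraries of set B, and the median over the 76 genes describes the library. In the 3 N6W PRE libraries this median was −0.90 (animal 2907), −0.55 (2908) and −0.44 (2909) on the log2 scale. At TR it was −0.01, −0.37 and −0.11 in the same order, at END 0.25, 0.37 and 0.16, and at END-CC 0.28, 0.23 and 0.66. The CONTROL libraries had 0.24, 0.03 and −0.25 at END and 0.36, 0.15 and −0.01 at END-CC, and the N22W libraries had 0.00, 0.06 and 0.11 at END and −0.12, 0.18 and 0.03 at END-CC. The 3 PRE libraries are thus the lowest 3 of set B, and the medians of N6W at the end (0.16 to 0.66) overlap those of CONTROL and N22W. The rule asked for N6W levels at the end above those at PRE, and it bounded the END-CC difference from CONTROL. These positions therefore follow in large part from the choice of genes. The medians of all 12395 genes stayed between −0.02 and 0.03 in set B.

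**Figure D1:**
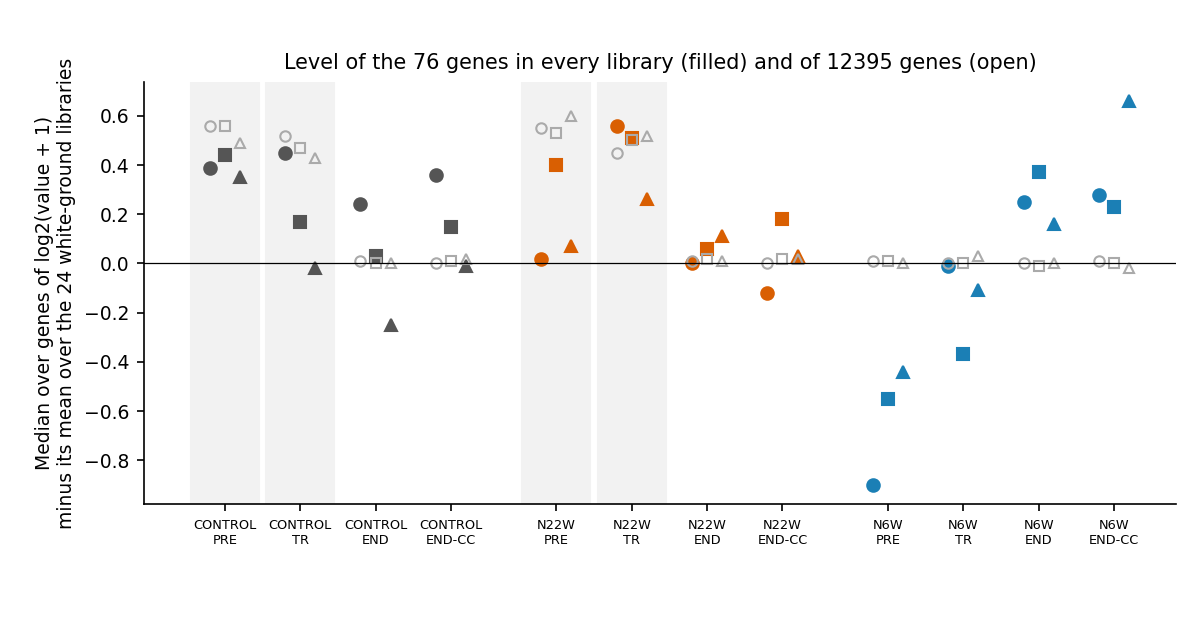
Each point is a library, and its height is the median over genes of log2(value + 1) minus the gene's mean over the 24 libraries of set B. Filled points are the 76 genes and open points all 12395 genes, with 1 marker shape per animal of an arm and the libraries of set A on the shaded ground. The filled points of the 3 N6W PRE libraries (−0.90, −0.55 and −0.44) lie lowest on the white ground.

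Read gene by gene, the mean of N6W PRE was below the mean of every other group of set B in 65 of the 76 genes, against 15.2% of the 12395. The 3 PRE libraries lay below all 21 other libraries of set B in 8 genes, against 0.726%. They lay below the 6 N6W libraries from the end without overlap in 42 genes, against 3.39%. All 3 animals were higher on both sides in 58 genes (7.83% of all), on the other side in 68 (24.4%) and on the operated side in 64 (16.4%). These shares follow in large part from the choice of genes.

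Single libraries weighed unequally. The PRE library of animal 2907 held the lowest of the 12 N6W values in 45 of the 76 genes, against 7.02% of all genes, and that of 2908 and 2909 in 10 and 12. The highest of the 12 was in the END-CC library of 2909 in 34 genes, against 12.3% of all. The PRE libraries held 19974815 reads in 2907, 14434966 in 2908 and 11879727 in 2909. Whether depth bears on the counts of lowest values was not tested. With 2907 left out the rule gave 77 genes, of which 38 are among the 76. Without 2908 it gave 107 with 52 shared, and without 2909 it gave 152 with 49 shared. The list therefore moves with each of the 3 animals.

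The N6W change from PRE had a median over the 76 genes of 0.88 at END (0.71 to 2.67) and 0.93 at END-CC (0.70 to 4.09). At END the medians were 1.17 in 2907, 0.92 in 2908 and 0.61 in 2909. At END-CC they were 1.20, 0.88 and 1.10. Both changes start from the same PRE libraries, so they are alike in part by construction. The smaller of both changes was at least 1 in 15 genes, between 0.8 and 1 in 28 and under 0.8 in 33. At the threshold the list has no gap. Just inside lay ENSOARG00000011626 (0.701), ENSOARG00000024601 (0.709) and ENSOARG00000010381 (0.712), and just outside ENSOARG00000012663 (0.699), ENSOARG00000014965 (0.696) and ENSOARG00000008179 (0.693), which met the other conditions.

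The largest changes belonged to ENSOARG00000010881. In N6W its values were 138, 231 and 945 at PRE (animals 2907, 2908 and 2909 in order), 2806, 225 and 547 at TR, 2991, 1797 and 1453 at END and 6146, 2158 and 11390 at END-CC. In CONTROL it had 3079, 2580 and 1501 at PRE, 2836, 475 and 338 at TR, 2334, 1267 and 703 at END and 3059, 3360 and 1402 at END-CC. In N22W it had 675, 1507 and 388 at PRE, 1354, 1036 and 820 at TR, 1212, 1608 and 1281 at END and 1724, 2139 and 1405 at END-CC. The N6W PRE values lay below all 6 N6W values from the end, while its TR values spanned both ranges. The log2 change in N6W was 4.09 ± 1.21 at END-CC and 2.67 ± 1.92 at END (SD, n = 3), and the END value was below the END-CC value in every one of the 9 animals.

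ENSOARG00000014391 moved with less scatter. Its N6W values were 72.8, 97.8 and 82.4 at PRE, 222, 101 and 109 at TR, 324, 285 and 199 at END and 340, 229 and 344 at END-CC. All 3 PRE values lay below all TR values and below all 6 values from the end, while TR and END overlapped. The END and END-CC libraries of CONTROL and N22W ran from 92.4 to 306.5 with a median of 182, which takes in the N6W TR values and reaches into those from the end. The N6W changes were 1.83 ± 0.53 at END-CC and 1.64 ± 0.45 at END.

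ENSOARG00000005922 had narrow replicate ranges, with 146, 177 and 158 at N6W PRE, 176, 199 and 185 at TR, 299.7, 345 and 276 at END and 312, 347 and 323 at END-CC. PRE and TR overlapped, and both lay below all 6 libraries from the end. The 12 END and END-CC libraries of CONTROL and N22W ran from 224 to 374 with a median of 299, so that N6W before repair stood below the other arms and N6W at the end among them. Its changes were 1.03 ± 0.07 at END-CC and 0.93 ± 0.12 at END, and 0.22 over release.

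ENSOARG00000007579 and ENSOARG00000013956 are abundant genes whose N6W values at the end went past those of the other arms. ENSOARG00000007579 had 407, 772 and 748 at N6W PRE, 653, 915 and 850.1 at TR, 1313, 2043 and 1334 at END and 1398, 1436 and 2756 at END-CC, against 415 to 1375 in the END and END-CC libraries of the other arms. ENSOARG00000013956 had 1201, 1795 and 1378 at PRE, 1799, 1570.0 and 1814 at TR, 3692, 3939 and 2740.0 at END and 3406, 4141 and 2669 at END-CC, against 1488 to 2735 there. For the former a single CONTROL library lay within the N6W range at the end, and for the latter 3 CONTROL libraries did.

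Other genes had low values or N6W animals that differed in direction at END. ENSOARG00000010953 had 4.50, 1.30 and 22.6 at N6W PRE and 34.5, 46.5 and 15.2 at END, a change of 2.17 ± 2.49 whose SD exceeds it, since animal 2909 was lower at END than at PRE. ENSOARG00000009458 had 471, 560 and 1722 at PRE and 1701, 2181 and 1101 at END, again with 2909 lower at END, and 1855, 2455 and 3763 at END-CC. ENSOARG00000023567, at a median of 17.6, had 2.70, 7.83 and 12.9 at PRE and 25.1, 27.9 and 14.8 at TR. With 22.7, 24.6 and 23.2 at END, TR was already above END in 2907 and 2908.

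ENSOARG00000010221 lay far apart between the sets. Its 12 PRE and TR values in CONTROL and N22W ran from 309.8 to 595.7, and its 24 values in set B from 11.74 to 62.36. Within set B its N6W PRE values of 22.5, 11.7 and 29.1 lay below those of the other 21 libraries, and the N6W changes were 1.08 ± 0.17 at END-CC and 1.05 ± 0.92 at END. Set A exceeded set B by over 2-fold on average in 5 of the 76 genes, against 7.1% of all.

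**Figure D2:**
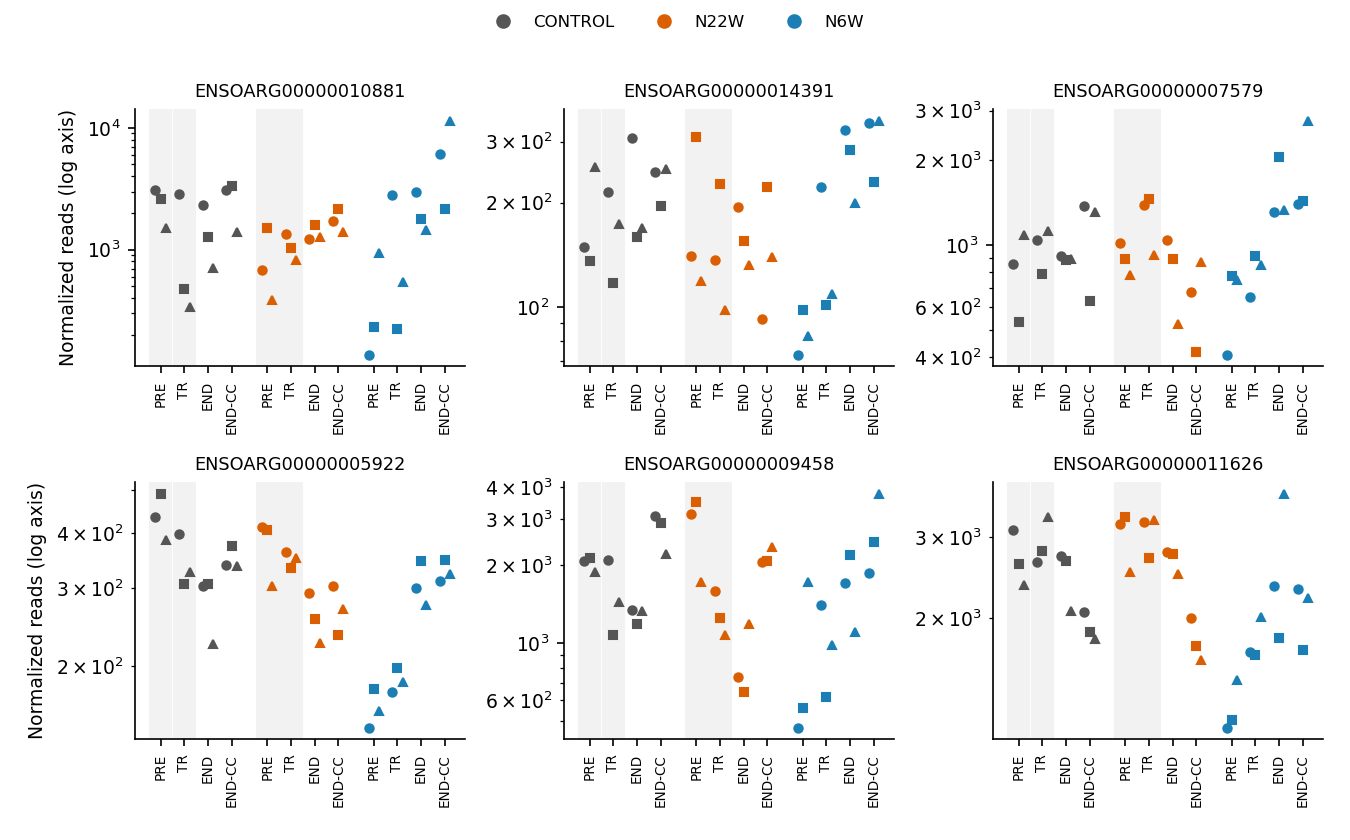
Normalized reads of 6 of the 76 genes in all 36 libraries, on log axes, with 1 panel per gene, the groups along the x axis, 1 marker shape per animal of an arm and the libraries of set A on the shaded ground. The genes were chosen after their values had been seen, to show wide and narrow spreads. ENSOARG00000005922 has N6W PRE values of 146 to 177 against 276 to 347 at the end.

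Another 5 abundant genes had N6W END-CC changes of 1.03 to 1.43. ENSOARG00000006006 had 2799, 2818 and 4728 at N6W PRE, 7138, 6183 and 6102 at END and 7036, 5353 and 10970.0 at END-CC, changes of 0.95 ± 0.52 and 1.16 ± 0.21. ENSOARG00000006838, ENSOARG00000016068, ENSOARG00000007637 and ENSOARG00000013187 had changes of 1.29, 1.03, 1.25 and 1.43 at END-CC and of 0.80, 0.81, 0.76 and 0.80 at END. The other side thus had the larger mean change in all 5. Over the 76 genes that held in 52, against 51.7% of all genes. By level, 36 of the 76 had a median of 10 to 100, 23 one of 100 to 1000 and 17 one of 1000 to 10000, against 4611, 6323 and 1461 of the 12395 genes.

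Part of the higher N6W level was there before the drug. From PRE to TR the median over the 76 genes was 0.51 in N6W, and from TR to END, under nandrolone and after repair, 0.40. From TR to END 69 of the 76 were above 0, against 49% of all genes. The group means stood in the order PRE, TR, END in 65 genes, against 16.9% of all. Over release 39 of the 76 had a change above 0.5 in N6W (11.7% of all) and 24 by at least 0.7 (6.7%). The animals differed in timing. Animal 2907 had a median of 0.93 over release and 0.24 after it, 2908 had 0.18 and 0.80, and 2909 had 0.33 and 0.20. The release change shares the PRE libraries with the changes that chose the genes, so a low PRE level raises both. The change from TR to END shares the END libraries with the rule, so a high END level raises it as well. No test was made of either.

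**Figure D3:**
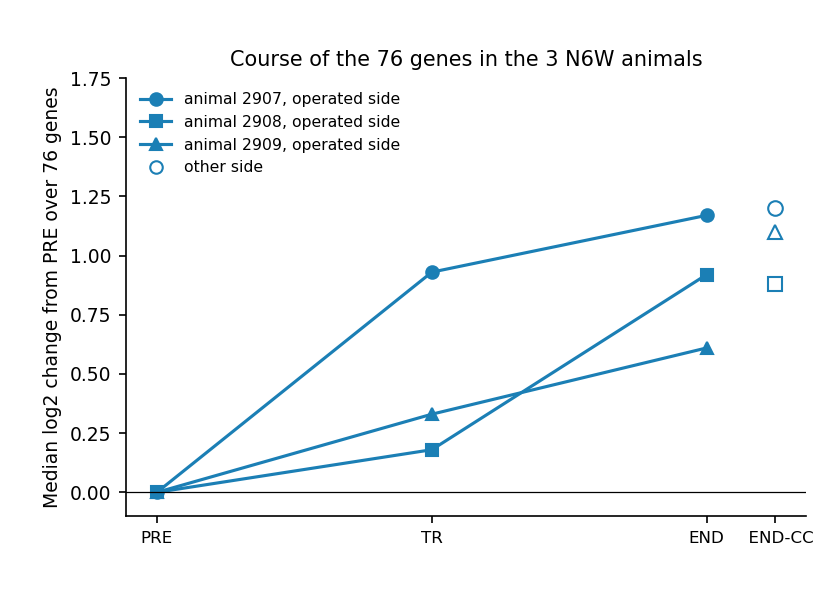
Median log2 change from PRE over the 76 genes for each N6W animal, with filled points for the operated side at TR and END and open points for the other side at the end. Animal 2907 gained most before repair (0.93 at TR), and 2908 most after it (0.18 at TR and 0.92 at END).

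The arms differed in direction over release. The median change from PRE to TR was −0.21 in CONTROL, with 20 genes above 0 and 56 below, 0.17 in N22W, with 55 above and 21 below, and 0.51 in N6W, with 72 above and 4 below. All 12395 genes had medians of −0.09, −0.09 and −0.01, with 40.2%, 41.3% and 49.4% above 0. By animal the medians were −0.07, −0.25 and −0.34 in CONTROL (2901, 2902 and 2903), 0.37, 0.14 and 0.19 in N22W (2913, 2914 and 2915) and 0.93, 0.18 and 0.33 in N6W. Each CONTROL animal was below 0 and each treated-arm animal above it, and N6W had received no drug by then. All 12395 genes had −0.05, −0.12 and −0.08 in the CONTROL animals and −0.12, −0.05 and −0.11 in those of N22W. In N6W they had −0.03, −0.01 and 0.02. Animal 2901 thus lay near the median of all genes, and the signs in N6W follow in part from the choice of genes. A change within 0.5 in all 3 arms was found in 18 of the 76 genes, against 60% of all.

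**Figure D4:**
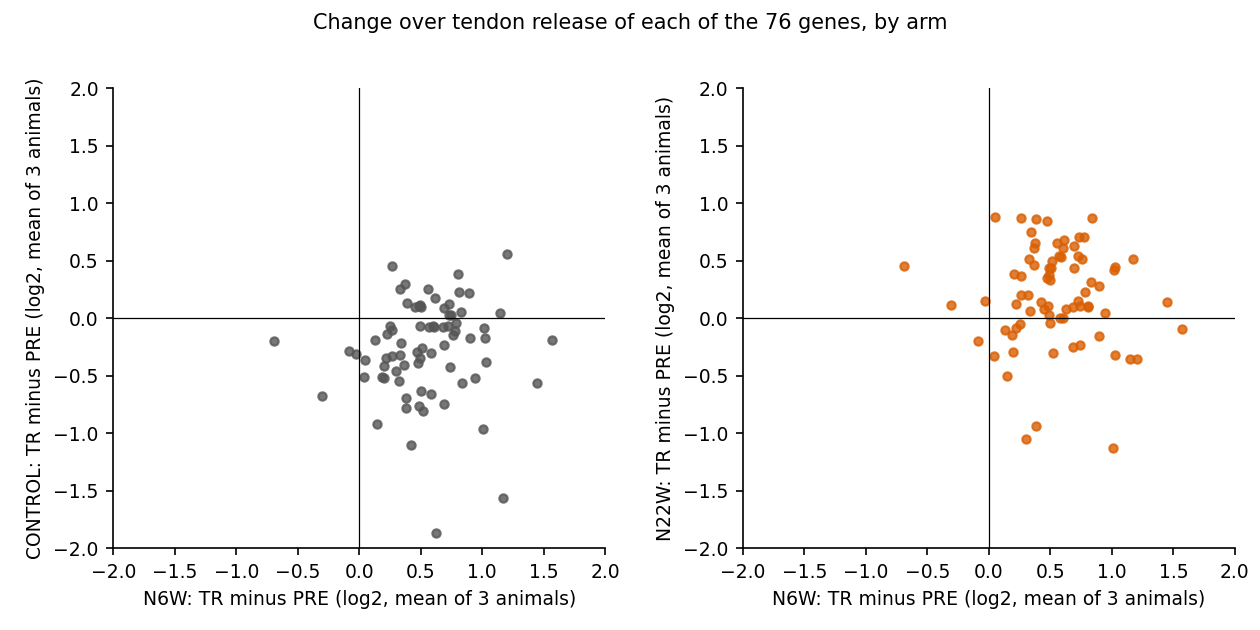
Change from PRE to TR on log2(value + 1) for each of the 76 genes, as the mean of 3 animals, with N6W on the x axis and CONTROL (left) or N22W (right) on the y axis. On the x axis 72 of the 76 points lie above 0, and on the y axis 20 do in CONTROL and 55 in N22W. Of all 12395 genes, 49.4% were above 0 in N6W, 40.2% in CONTROL and 41.3% in N22W.

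The difference between N22W and CONTROL over release was tested, since the rule bounds only the mean over all animals. It asks whether these genes responded otherwise to release under nandrolone, and all 4 groups lie in set A. Limma called 0 of the 76 genes and 0% of the 16417 genes tested at a false discovery rate of 0.05, and the lowest adjusted p of the 76 was 0.356. The difference was above 0 in 64 of the 76, with a median of 0.48 against −0.01 over all genes. At an unadjusted p under 0.05 there were 17 higher and 1 lower, or 23.7% of the 76, against 6.64% of all genes. edgeR and DESeq2 called 0 of the 76 as well, and 11 and 27 of all genes.

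The lowest p in that comparison was that of ENSOARG00000013956. It had 2296, 2384 and 1456 at CONTROL PRE and 1879, 2016 and 1696 at TR, and 1455, 2271 and 979 at N22W PRE and 3380.0, 2596 and 2251 at TR. TR was above PRE in all 3 N22W animals and below it in 2 of 3 CONTROL animals, and the TR values of both arms did not overlap. The difference of the changes was 0.97 (SE 0.26, limma adjusted p = 0.356) and did not pass. The test has a median SE of 0.42 for the 76 genes, against 0.26 for the 12395.

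Over the whole 22 weeks no difference between N22W and CONTROL passed either. The change from PRE to END crosses the sets alike in both arms. Limma called 0 of the 76 genes, against 0.122% of all genes tested (0.0122% higher and 0.11% lower), with a lowest adjusted p of 0.415. The median difference was 0.18, against −0.00 over all genes, with 52 of the 76 above 0. At an unadjusted p under 0.05 there were 6 higher and 1 lower, 9.21% of the 76 against 6.65% of all. edgeR and DESeq2 also called 0 of the 76, and 19 and 52 of all genes. Both comparisons share the PRE libraries of the 2 arms.

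For CONTROL and N22W by themselves, the direction of the change from PRE to the end depended on the scaling. As deposited, the median over the 76 genes was −0.43 at END and −0.23 at END-CC in CONTROL, and −0.14 and −0.10 in N22W. All 12395 genes had −0.53, −0.55, −0.53 and −0.55, a shift that comes with the sets. Less that shift the 76 genes had 0.10, 0.32, 0.39 and 0.45. With TMM factors, which bring the medians of all genes to between −0.01 and 0.01 there, those of the 76 were 0.11, 0.32, 0.40 and 0.44, with 47, 59, 53 and 59 of the 76 above 0, against 18, 24, 31 and 31 as deposited. In N6W, inside set B, TMM left the medians at 0.89 and 0.93. None of the 76 reached 0.7 on both sides in CONTROL and in N22W as deposited, against 0.161% of all genes.

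At the end, the operated side and the other side could be compared within each animal, on the same occasion and inside set B. In CONTROL and N22W this difference did not enter the rule. The median of END minus END-CC over the 76 genes was −0.14 in CONTROL and 0.02 in N22W. Over these 6 animals limma called 12 of the 76 genes, 4 higher and 8 lower in the operated muscle, or 15.8%. Of all 16417 genes 29.5% were called, 14.9% higher and 14.6% lower, and among the 12395 genes 35.1%. In this fit the 76 genes thus hold fewer calls than the background, with a median SE of 0.21 against 0.13. The median difference was −0.05, against 0.07 over all tested. The SE rests on all 36 libraries, those of N6W that chose the genes included. More of the 76 were called with only the libraries compared, as given below. The lower count therefore does not show smaller differences between the sides in these genes. A difference of at least 0.5 in size over 6 animals was found in 21 of the 76, against 20.3% of the 12395.

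The gene with the lowest p was ENSOARG00000002856, higher in the operated muscle. It had 240.5, 193 and 127 at END and 146, 97.0 and 71.7 at END-CC in CONTROL, and 123, 202 and 170.3 against 33.4, 92.7 and 83.5 in N22W. END was above END-CC in 6 of 6 animals, by 1.09 (SE 0.15, limma adjusted p = 7.56e-05). In N6W the sign was mixed, with 76.6, 164 and 163 at END and 88.0, 103 and 258 at END-CC. It was also called in CONTROL alone (0.84, adjusted p = 0.00959) and in N22W alone (1.33, adjusted p = 0.0066), where leaving out any animal of the arm ended the call.

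ENSOARG00000011626 was the other gene with a higher operated side in 6 of 6 animals whose call over both arms held under every alternative. It had 2731, 2658 and 2068 at END and 2062, 1866 and 1799 at END-CC in CONTROL, and 2793, 2760.0 and 2499 against 2002, 1736 and 1623 in N22W. The sides did not overlap in either arm, and the difference over both arms was 0.48 (SE 0.10, limma adjusted p = 0.00177). ENSOARG00000016993 (0.36, adjusted p = 0.0173) and ENSOARG00000010969 (0.69, adjusted p = 0.0304) were higher in 6 of 6 animals as well. The former did not pass without 2902, 2913 or 2915, and the latter without any 1 of these, 2901 or 2914. Both are named beyond the rule on named genes, as are the other 4 calls given last.

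Lower in the operated muscle was first ENSOARG00000005936. It had 27.4, 23.9 and 16.5 at END and 56.1, 56.5 and 34.3 at END-CC in CONTROL, and 13.6, 17.9 and 19.4 against 39.8, 37.7 and 37.3 in N22W. The sides did not overlap in either arm, and the difference was −1.11 (SE 0.21, limma adjusted p = 0.000737), lower in 6 of 6 animals.

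ENSOARG00000009458 was lower by a similar amount. Its END values of 1337, 1187 and 1323 in CONTROL and 741, 648 and 1183 in N22W lay below all 6 END-CC values, 3096, 2899 and 2195 and 2052, 2071 and 2338. The difference was −1.23 (SE 0.26, limma adjusted p = 0.00181). In N6W it was below END-CC in all 3 animals too, by −0.12, −0.17 and −1.77.

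ENSOARG00000009992 (−0.85, SE 0.18, limma adjusted p = 0.00133) and ENSOARG00000006838 (−0.59, SE 0.15, adjusted p = 0.0062) were lower in 6 of 6 animals. ENSOARG00000009992 had 28.7, 30.4 and 35.6 at END against 79.0, 57.7 and 64.6 at END-CC in CONTROL, and 36.9, 43.6 and 50.8 against 43.6, 92.7 and 79.0 in N22W. The calls of these 2 genes, like those of ENSOARG00000005936, ENSOARG00000009458, ENSOARG00000002856 and ENSOARG00000011626, were kept under every alternative over both arms. The last 4 calls were lost under some: ENSOARG00000004759 (−0.85, adjusted p = 0.00982, lower in 5 of 6 animals) and ENSOARG00000007599 (−0.65, 0.0166, lower in 6 of 6) without 2901 or 2914. ENSOARG00000016021 (−0.87, 0.043, lower in 6 of 6) did not pass without any 1 of the 6 animals, and ENSOARG00000010568 (−0.57, 0.0487, lower in 5 of 6) without any of these but 2903, nor without 2907 or 2908. Without the animal term the last 2 did not pass (adjusted p = 0.0944 and 0.0978), nor did ENSOARG00000016993 (0.0649) and ENSOARG00000010969 (0.11).

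By arm, limma called 6 of the 76 genes in CONTROL, 1 higher and 5 lower, against 19.4% of all genes (9.53% higher and 9.87% lower). In N22W it called 2, both higher, against 1.6% of all genes (0.822% higher and 0.78% lower). The CONTROL calls were ENSOARG00000002856, ENSOARG00000009992 (−1.06, adjusted p = 0.00606), ENSOARG00000005936 (−1.08, 0.0154), ENSOARG00000006838 (−0.77, 0.0158), ENSOARG00000009458 (−1.08, 0.0443) and ENSOARG00000005922 (−0.34, 0.0444). The N22W calls were ENSOARG00000002856 and ENSOARG00000011626 (0.59, 0.042). Both N22W calls ended without any 1 N22W animal and without the animal term. That of ENSOARG00000011626 also ended with no filter, with edgeR, and without 2901 or 2902. In CONTROL the call of ENSOARG00000009992 ended without 2901, and that of ENSOARG00000006838 without 2901, 2903 or the animal term. The other 4 ended without any 1 CONTROL animal, and all of them but ENSOARG00000005936 also without the animal term. The call of ENSOARG00000009458 ended with no filter or without 2913 or 2914 too. That of ENSOARG00000005922 ended with only the libraries compared or without 2907, 2908 or 2913. The sign was the same in both arms for 54 of the 76 genes, against 80.1% of the 12395. With a difference of at least 0.5 in size it was the same for 21 of 21, against 98.4% of such genes among the 12395. A difference between the arms was not tested.

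**Figure D5:**
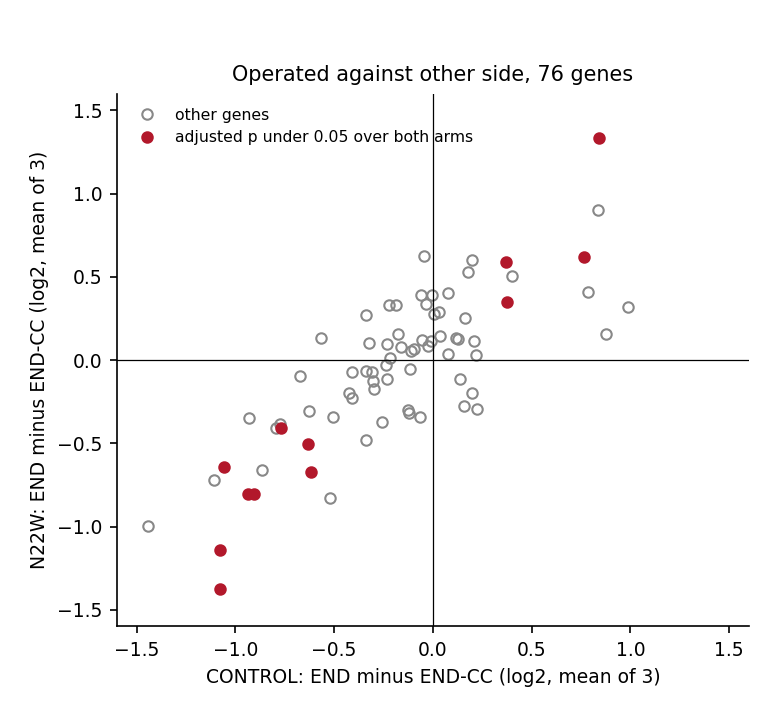
END minus END-CC on log2(value + 1) for each of the 76 genes, as the mean of 3 CONTROL animals on the x axis and of 3 N22W animals on the y axis, with the 12 genes called over both arms marked. Of the 12, 4 lie above 0 and 8 below in the mean of both arms.

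In N6W, where the rule asked for a higher level on both sides, the sides differed by a median of −0.09 over the 76 genes. The 3 animals had −0.03 (2907), 0.09 (2908) and −0.44 (2909), and the largest difference was in 2909, whose END-CC library was the highest. END was below END-CC in all 3 animals in 16 genes and above it in 2, against 25.4% and 21.1% of all genes.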

How the data were processed

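Total RNA of 36 infraspinatus biopsies was sequenced. Per the labels' protocols, stranded libraries were made after depletion of ribosomal RNA. Tools listed without roles in the submitters' processing notes are STAR 2.3.0e and R 3.0.2, and the assembly is Oar_v3.1. The deposited files hold 1 signal per gene and library. Its steps are whole multiples of 1 value per library, so it was read as reads over a size factor, of a kind not given in the sources used here. Recovered reads lay within 0.1 of whole numbers in 100% of values up to 100 reads. Libraries of a group differed by a chi-square per gene of 15.16 to 155.82, so none was counted as a copy.

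Limma 3.58.1 (R 4.3.3) with a mean-dependent prior was fitted to log2(value + 1) of 16417 genes (median value 0.5 or more), over 36 libraries, with 12 group means and the animal as a block. Fold changes are on this scale, which understates those of low genes. P-values are two-sided and Benjamini-Hochberg adjusted over 16417 genes in each of 5 comparisons, with a threshold of 0.05. On simulated data the test of both sides recovered 90% of 2-fold changes over both arms, 70% in CONTROL and 68% in N22W, against 46% for release and 36% for 22 weeks.

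The animals pair the libraries by design. Deviations from group means correlated by a mean of 0.24 within an animal and −0.12 between animals, with 16 of 18 combinations above 0.1 in every animal and a lowest value of 0.0. Alternatives were a pseudocount of 0.5, no filter, TMM, only the libraries compared, no block, leaving out each animal, and edgeR 4.0.16 and DESeq2 1.42.0 on recovered reads.

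Members, lists and tests were chosen with earlier results of these data known. Named are the 12 members with the largest smaller N6W change, the 6 next most abundant, up to 6 called per comparison, and 3 on each side of the threshold. Of 25197 identifiers 0 matched a name, so no marker list was used and no sequence is shown.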

Additional observations from a re-analysis of the deposited data

Results flagged for a closer look

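Over release, the median of the 76 genes was above 0 in every N6W animal and below 0 in every CONTROL animal, a difference between the arms of 0.70. In CONTROL animal 2901 it was −0.07, against −0.05 for all genes. The same opposite directions held for single genes: 1.76 for ENSOARG00000023567, 1.46 for ENSOARG00000021157, 0.89 for ENSOARG00000013187, 0.65 for ENSOARG00000009992 and 0.56 for both ENSOARG00000016068 and ENSOARG00000005922. These differences were not tested. They are fixed in part by the rule, which asked for a low N6W PRE level and a bounded mean over the arms, and CONTROL and N6W lie in different sets.

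Of 50 groups of animals checked, a few had a single animal far from the rest of the group. Over release these were 2907 at 1.59 for ENSOARG00000014391 and at 1.14 for ENSOARG00000006838, and 2909 at 1.52 for ENSOARG00000002856. Between END and END-CC they were CONTROL animal 2903 at −1.28 for ENSOARG00000005259 and −1.02 for ENSOARG00000013187, and N22W animal 2913 at 0.46 for ENSOARG00000006637 and 1.86 for ENSOARG00000002856. Chance alone sets about 1 in 20 groups apart, and genes of one library are not independent.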

How the results depend on the processing

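The number of genes that met the rule was 80 with a pseudocount of 0.5 (74 shared with the 76), 75 with TMM (69 shared), 15 with a minimum of 1 for both N6W changes, and 60 to 152 with an animal left out. The N6W changes of the named genes kept their direction in all 96 results under other settings and all 144 with an animal left out. The calls of members given above were kept in 124 results and lost in 16 under other settings. With an animal left out they were kept in 127 and lost in 53. Tests that did not pass at first were not followed in these counts. No result reversed.

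Without the animal pairing as a block, the count over all genes was 3163 in place of 4837 for both sides in CONTROL and N22W (8 of the 76), 1596 in place of 3184 in CONTROL (2 of the 76), 38 in place of 263 in N22W (0 of the 76) and 0 in place of 20 over 22 weeks. With only the libraries compared, 27 of the 76 were called over both arms, 16 in CONTROL and 7 in N22W, with 791 of all genes in N22W. For both arms and for CONTROL the share of all genes called in that setting is not given here. The rise in calls is therefore not read as a result about the 76. With no filter N22W had 117 genes and 1 of the 76, and release 15 genes. DESeq2 called 714 genes and 4 of the 76 in N22W, 52 genes over 22 weeks and 27 for release, where edgeR called 11. With an animal left out the counts over all genes were 2989 to 5412 (8 to 17 of the 76) for both arms, 752 to 3930 (1 to 9) in CONTROL, 0 to 896 (0 to 4) in N22W, 2 to 21 over 22 weeks and 0 to 6 for release. None of the 76 was called over 22 weeks or for release under any of these alternatives. The causes were not tested.

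With 3 animals per group, simulated 2-fold changes were often missed over release and over 22 weeks, so a count of 0 there does not show that the arms are alike.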

Other observations

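Among the 12 END and END-CC libraries of CONTROL and N22W, whose levels did not enter the N6W changes of the rule, pairs of the 76 genes had a median Pearson r of 0.14, against −0.00 for pairs of the 12395 genes. A correlation above 0.7 was found in 3.54% of the pairs of the 76 and in 3.34% of all pairs, and one below −0.7 in 0.702% and 3.16%. The END-CC libraries among the 12 did enter the bound of the rule on the other side. The libraries include both sides of each animal and both arms, so these values describe the 12 libraries and carry no test.

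Between the arms at a single time, the median over the 76 genes of N22W minus CONTROL was −0.16 at PRE, 0.27 at TR, 0.08 at END and −0.13 at END-CC. N6W minus CONTROL was 0.26 at END and 0.22 at END-CC. All 12395 genes had 0.03, 0.01, 0.02 and 0.01 for N22W minus CONTROL, in the same order. For N6W minus CONTROL they had −0.01 at END and at END-CC. The rule asked for a higher level in N6W at the end than at PRE, and it bounded the END-CC difference. The values of N6W and of END-CC therefore follow in part from the choice of genes. No test was made of them.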
